A study of Mus musculus with 21 samples.

Results

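The mouse beta-globin locus control region and the stretch of chromosome 7 that leads from it to the outer hypersensitive site HS-62 were followed as targets of 4C-seq, which reads how often each part of the genome was ligated to a chosen fragment, the viewpoint. The members were the positions of the deposited profiles from 111003000 to 111063000 (mm9), chosen by coordinate alone. There were 61 in each of 7 libraries, 427 of the 2993 positions of the locus and of the 14729 in the 21 libraries of the series. Livers and brains of C57BL/6 fetuses at 14.5 days post coitum were fixed in 2% formaldehyde for 10 minutes. Cells of 10 to 12 embryos were pooled, and the material fixed together equalled 2 livers or 4 brains. HS-2, 3' HS-1 and the promoter of Hbb-b1 were each viewed in liver and in brain, cut with DpnII and Csp6I, and HS-62 was viewed in liver alone, cut with NlaIII and DpnII. Each of these 7 groups was 1 library, so no difference below has a replicate check and no p-value was computed. The signal is an average over all cells of a tissue, in which fewer cells with a contact and rarer contact per cell cannot be told apart.

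The locus control region is a cluster of nuclease-hypersensitive elements upstream of the beta-like globin genes that drives their high transcription in red cell precursors. HS-2 is 1 of its elements and is known as an enhancer. Hbb-b1 encodes an adult beta-globin chain. The outer sites, 3' HS-1 on the far side of the genes and HS-62 beyond the control region, are known to bind CTCF, a protein that anchors chromatin loops. Fetal liver is the main site of red cell formation at this age, and fetal brain does not make globin.

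In the gene table (GRCm38.p6, RefSeq) the last globin gene on this side is Hbb-y, an embryonic beta-like globin, and the genes listed after it are Olfr66, the pseudogene Dnajc19-ps, Olfr64 and Olfr65. The Olfr genes encode odorant receptors. All 4 protein-coding genes had sequences listed as promoters (RefSeq), taken from 250 bases before to 50 bases after the listed gene start. Those of the last globin and the first odorant receptor gene are shown, since these are neighbours in the table and 4C reads come only from the ends of cut fragments, with the sites of DpnII, an enzyme of all 7 libraries, in capitals. Both are on the minus strand, at chr7:103853158-103853457 and chr7:103882192-103882491 of GRCm38.p6, a build other than that of the profiles. Genes could not be placed among the positions of the region, so whether either stretch lies inside it is not known here. The listed start of Olfr66 is itself an ATG, so its stretch may flank a coding start and is not shown to be a promoter.
Hbb-y: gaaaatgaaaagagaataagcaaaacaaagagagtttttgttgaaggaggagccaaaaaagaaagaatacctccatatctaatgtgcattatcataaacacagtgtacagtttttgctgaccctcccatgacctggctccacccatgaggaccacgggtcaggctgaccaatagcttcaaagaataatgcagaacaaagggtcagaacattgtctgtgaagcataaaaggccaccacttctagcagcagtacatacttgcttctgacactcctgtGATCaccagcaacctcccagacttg
Olfr66: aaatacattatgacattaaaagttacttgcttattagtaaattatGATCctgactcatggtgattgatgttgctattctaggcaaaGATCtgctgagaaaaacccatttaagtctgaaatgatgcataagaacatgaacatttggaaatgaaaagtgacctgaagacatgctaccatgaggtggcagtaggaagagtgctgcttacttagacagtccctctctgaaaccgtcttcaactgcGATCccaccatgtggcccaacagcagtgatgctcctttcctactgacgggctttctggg

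GATC, which reads the same on both strands, occurred 1 time in the Hbb-y stretch and 3 times in that of Olfr66. Of 32851 listed promoters of this length, 48% held it. Hbb-y also had 1 CCAAT and 1 CACCC motif, searched on both strands, and Olfr66 had neither. These are short motifs, found in 37.4% and 57.5% of promoters, and a match is a description of the letters only.

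Values are given as relative signal, the deposited signal divided by the mean of the same library over all positions more than 10 kb from its viewpoint, in the 5 kb smoothing window unless the 2 kb window is named. A value of 1 is the library's own mean. Each position also carries the authors' lower and higher window value, which is the only spread in the files and is given in brackets. Positions within 10 kb of a viewpoint were left out, which leaves all 61 for the Hbb-b1 promoter and 3' HS-1, 47 for HS-2 and 45 for HS-62. HS-2 was placed at 111.006 Mb, between the 5 kb peaks of its liver library, 111.007 Mb, and its brain library, 111.005 Mb. In the 2 kb window 111.006 Mb was empty in all 7 libraries. There the HS-2 liver library peaked at 111.009 to 111.010 Mb and the brain library at 111.005 Mb. Distances from HS-2 are therefore uncertain by a few kb. The region was divided into the control region (111003000 to 111026000, 24 positions), the stretch between (111027000 to 111052000, 26 positions) and the HS-62 block (111053000 to 111063000, 11 positions). Sequencing depth is unknown. As a rough scale for differences, the full and the 1/16 template liver libraries of another viewpoint, the Hba-a1 promoter, differed with an SD of 0.81 on the log2 scale over 30 blocks of 10 kb. This technical pair measures no spread between embryos.

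The filling of the 2 kb window differed between the tissues. All 3 brain libraries were empty at the same 156 of 399 positions of the locus and at no other position. Within the region they shared 14 empty positions, of which 10 held signal in at least 2 of the 3 DpnII/Csp6I liver libraries and 6 held it in all 3. Only 4 positions, at 111.006, 111.011, 111.025 and 111.035 Mb, were empty in all 6 of these libraries, and the HS-62 library was empty at the first alone. In the 5 kb window no region position was empty, except 1 from HS-2 in liver. Whether an empty position is a measured 0 or a position with no value is not stated in the sources used here, so a brain value listed as empty is not read below as absence of contact. Brain and liver profiles rest on different sets of filled positions, and the part of this in the differences was tested only by leaving the 14 positions out.

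From the Hbb-b1 promoter, which lies 26 kb below the region, the control region was the dominant target in liver. Its mean relative signal was 10.0 in liver and 2.10 in brain, a 4.77-fold difference. It held 64.0% of the liver signal summed over the 375 profile positions beyond 10 kb, on 6.4% of those positions, and 13.4% of the brain signal. These are shares of smoothed values within the profile, not of reads or of all contacts. All 24 positions were above the library mean in both tissues, ranging from 2.49 to 23.3 in liver and from 1.39 to 4.45 in brain.

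The liver profile from the promoter had 3 maxima inside the control region. They stood at the HS-2 position, 111.006 Mb, with 23.3 (3.41 to 44.0), at 111.011 Mb with 15.5 (1.04 to 44.9), and at 111.019 Mb with 12.6 (2.95 to 28.5). In the 2 kb window 111.006 and 111.011 Mb were empty, so their 5 kb values rest on neighbouring positions. The highest 2 kb value in liver was 29.9 at 111.009 Mb, where the 5 kb window had 5.45. The liver library of HS-2 itself also peaked there in the 2 kb window. Brain had its highest value at 111.005 Mb, 4.45 (0.911 to 22.6), and lower maxima of 2.54 at 111.010 Mb and 1.91 at 111.015 Mb. The tissues came closest at the upper end of the control region, 111.026 Mb, where liver had 2.49 and brain 1.76. They were furthest apart at 111.018 Mb, where liver had 11.8 (2.22 to 25.2) and brain 1.44 (0.878 to 3.20), and even there the window ranges overlapped.

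On the log2 scale, with 10% of the library mean added to each value, liver exceeded brain over the control region by 2.20 from the Hbb-b1 promoter, beyond the template pair's SD. Liver was at least 2-fold above brain at 22 of the 24 positions, against 7.47% of all 375 positions of this library pair. These 22 were most of the 28 such positions from this viewpoint. The lower liver value cleared the higher brain value at 1 of the 24, against 1.07% over the locus, so at nearly all positions the ranges within the windows were wider than the gap. With the decay fitted on the side of the region the difference fell to 0.48, within the SD.

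**Figure D1:**
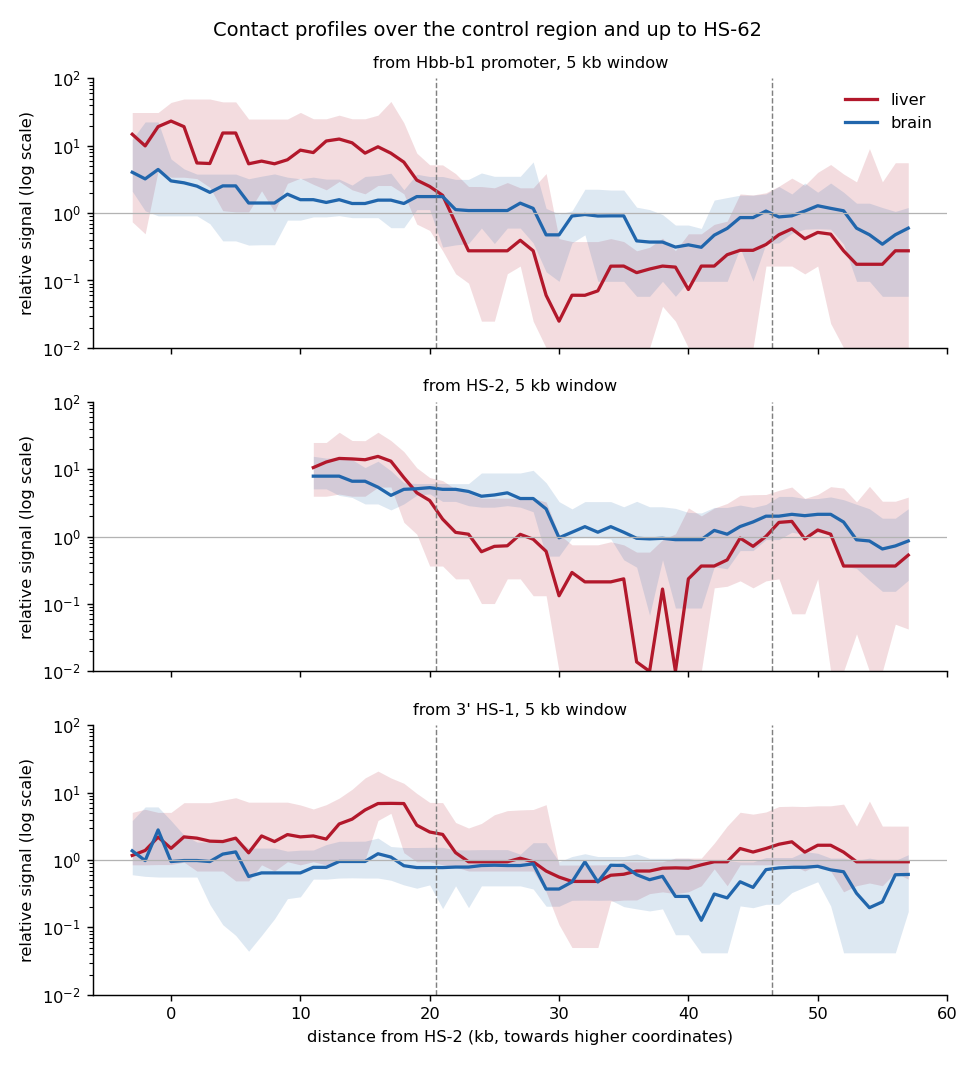
Relative signal (5 kb window, log axis) at each position of the region against the distance from HS-2 in kb, for the promoter of Hbb-b1, HS-2 and 3' HS-1 in liver (red) and brain (blue). Lines are middle values, shading runs from the authors' lower to higher window value, values under 0.01 are drawn at 0.01, dashed lines part the 3 blocks, and positions within 10 kb of HS-2 are left out of its panel. The red lines drop at the end of the control region, from a mean of 4.18 to 0.363 in the upper panel, while the blue lines decline more evenly.

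The control region ended abruptly in the liver profiles. Setting the mean of 5 positions against that of the next 5, the steepest fall from the Hbb-b1 promoter in liver lay between 111.027 and 111.028 Mb, from 4.18 to 0.363, or 11.5-fold. From HS-2 in liver it lay between 111.026 and 111.027 Mb and was 8.22-fold, from 8.83 to 1.07. From 3' HS-1 in liver it lay between 111.027 and 111.028 Mb and was 4.38-fold, from 4.44 to 1.01. The liver profiles of all 3 viewpoints therefore fell most steeply within 1 kb of each other, at the border of the control region.

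The brain profiles had no such fall at that place. Their steepest falls were 2.57-fold between 111.041 and 111.042 Mb from the Hbb-b1 promoter, 3.04-fold between 111.035 and 111.036 Mb from HS-2 and 2.60-fold between 111.044 and 111.045 Mb from 3' HS-1. These lie inside the stretch and differ by up to 9 kb between viewpoints. Near the liver border the 2 kb window was empty in all 3 brain libraries at 111.024 Mb, where liver had 8.46 from the Hbb-b1 promoter, 13.9 from HS-2 and 9.87 from 3' HS-1. At 111.025 Mb all 6 libraries were empty.

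Because both blocks belong to the same library, the ratio of the control region to the stretch does not depend on how a library is scaled. Seen from the promoter it was 36.8 in liver and 2.56 in brain. For HS-2, counting only the 10 control region positions more than 10 kb away, it was 20.1 and 2.81. From 3' HS-1 it was 3.18 and 1.68. Liver minus brain, these ratios differed by 3.85, 2.84 and 0.92 on the log2 scale.

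The ratio held up at finer smoothing for both inner viewpoints. In the 2 kb window it was 30.8 in liver and 2.98 in brain from the Hbb-b1 promoter, and 16.3 and 3.07 from HS-2. From 3' HS-1 the tissues were level there, with 2.35 in liver and 2.43 in brain. Without the 14 positions that all brain libraries left empty, the 2 kb ratios were 33.0 and 2.46 seen from the promoter, 15.1 and 2.51 from HS-2, and 2.405 and 2.01 from 3' HS-1. A monotone decay fitted on the side of the region follows any fall with distance by its construction, and left log2 differences of 0.61, 0.22 and 0.59.

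**Figure D2:**
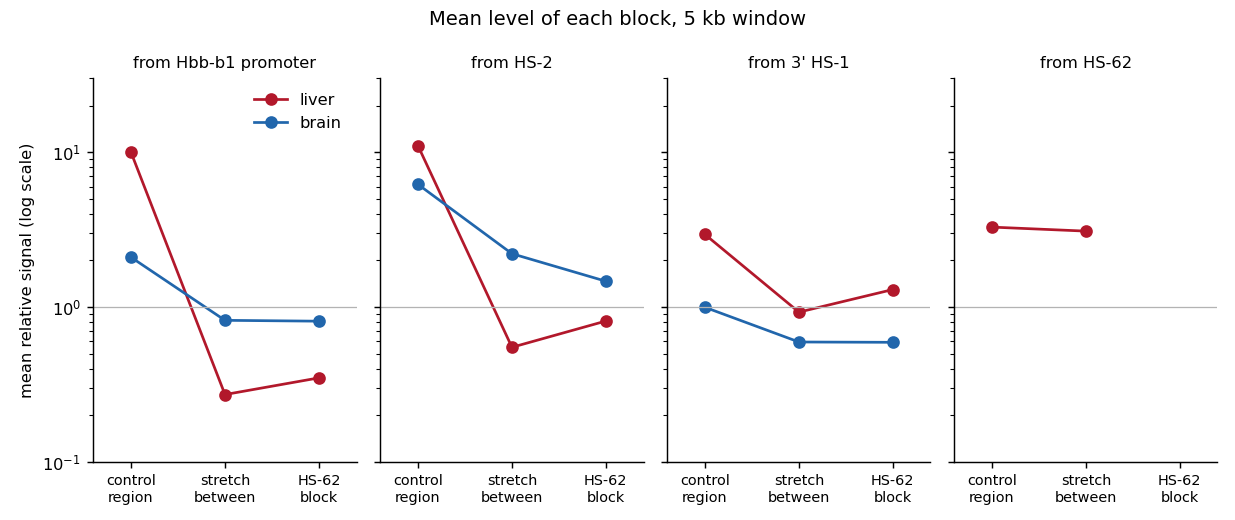
Mean relative signal (5 kb window, log axis) of the control region, the stretch and the HS-62 block from each viewpoint, 1 library per point, liver in red and brain in blue. From the Hbb-b1 promoter the liver line drops from 10.0 to 0.272 and the brain line from 2.10 to 0.820, while from HS-62, seen in liver alone, both measured blocks stand at about the same level.

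From HS-2, which lies inside the control region, the rest of that region was also higher in liver, but by less. The 10 positions from 111.017 to 111.026 Mb averaged 11.02 in liver and 6.20 in brain, a 1.78-fold difference. Liver values stayed between 10.6 and 15.5 up to 111.023 Mb and then dropped to 3.43 at 111.026 Mb, while brain went from 7.90 to 5.33 with a low of 4.09. The highest liver value was 15.5 (5.40 to 35.5) at 111.022 Mb. The largest gap was at 111.023 Mb, 13.2 (5.47 to 26.7) in liver against 4.09 (2.49 to 9.51) in brain, and at the last 2 positions brain was the higher, with 5.14 against 4.48 at 111.025 Mb.

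The log2 difference from HS-2 in the control region was 0.82, level with the template pair's SD. Liver was at least 2-fold higher at 4 of the 10 positions, against 7.47% of the 375 positions of the pair, and at no position did the window ranges lie apart, against 1.33%. On the deposited scale, on which the middle 5 kb value at HS-2 itself peaks near 1, the difference was 0.16. With the decay fitted on the side of the region it was 0.0041. Of the 28 positions of the locus with liver at least 2-fold higher from HS-2, 22 lay below the region, on the side of the globin genes.

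From 3' HS-1, the CTCF site 60.5 kb below the region on the other side of the genes, the control region averaged 2.94 in liver and 0.996 in brain, a 2.96-fold difference. The liver values were not highest at HS-2. They rose from 2.05 at 111.018 Mb to 6.96 (4.95 to 16.6) at 111.023 Mb and were 6.92 at 111.024 Mb. At the HS-2 position, which was empty in the 2 kb window, liver had 1.49 and brain 0.952. At 111.009 Mb, where the HS-2 liver library peaked in the 2 kb window, that window had 3.03 in liver and 2.57 in brain. The 2 kb means of the control region were 2.92 and 1.58. In brain the highest value was 2.81 (0.560 to 6.16) at 111.005 Mb, beside HS-2, where liver had 2.20, and a lower maximum of 1.24 lay at 111.022 Mb.

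On the log2 scale liver exceeded brain from 3' HS-1 by 1.47 in the control region, beyond the SD. Liver was at least 2-fold higher at 17 of its 24 positions, against 24.2% of the 376 positions of the pair. The lower liver value cleared the higher brain value at 2 of the 24, against 6.12%, a share close to the background. The largest gap was at 111.024 Mb, with 6.92 (1.29 to 13.8) in liver and 0.826 (0.428 to 1.54) in brain. In the 2 kb window this position was empty in brain, so its 5 kb brain value rests on neighbouring positions. In the 2 kb window the block difference was 0.85, and single positions at HS-2 ran the other way, with 6.22 in brain against 1.73 in liver at 111.004 and 111.005 Mb. With the decay on the side of the region the difference was 0.48, within the SD.

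**Figure D3:**
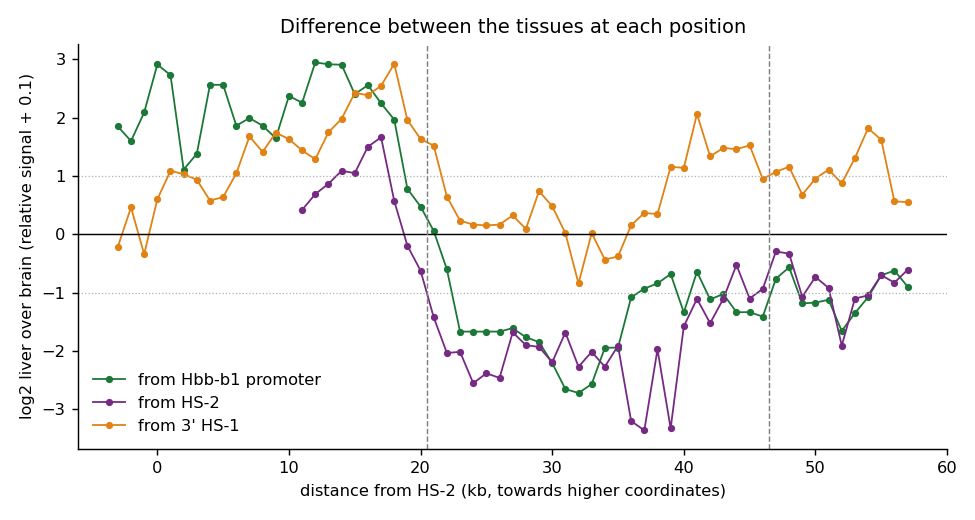
Log2 of liver over brain, each relative signal with 0.1 added, at each position against the distance from HS-2 in kb, for 3 viewpoints (5 kb window, 1 library per tissue). Dotted lines mark 2-fold and dashed lines part the blocks. Over the control region nearly all points lie above 0. Beyond it those from HS-2 and all but 1 from the Hbb-b1 promoter lie below 0, down to -3.36, and those from 3' HS-1 mostly stay above.

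In the stretch that follows, the tissues ran opposite ways by viewpoint. Seen from the promoter, the 26 positions averaged 0.272 in liver and 0.820 in brain. Liver was lowest at 111.036 Mb with 0.0248, the value this library repeats most often, and brain at 111.047 Mb with 0.311. Seen from HS-2 they averaged 0.549 in liver and 2.21 in brain, with liver empty at 111.043 Mb and brain never under 0.901. From 3' HS-1 they averaged 0.926 in liver and 0.594 in brain.

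Over the stretch, log2 liver over brain was -1.31 for the promoter and -1.83 for HS-2, both beyond the template pair's SD, and 0.56 from 3' HS-1, within it. Division by the library median in place of the mean turned the first to 0.57 and left the second at -0.96, and a decay over both sides turned the first to 0.45. The decay on the side of the region left -0.13, -0.21 and -0.11, so the third turned. Brain was at least 2-fold higher at 20 of 26 positions from the Hbb-b1 promoter, where 66.7% of all positions of the pair were, and at 24 of 26 from HS-2, where 66.9% were. A share of this kind in the stretch is thus near that of the whole locus for the promoter. These libraries differ in fill: 24% of positions beyond 10 kb were empty from the Hbb-b1 promoter in liver and 51.5% in the liver library of HS-2, while their brain partners had 6.13% and 6.93%.

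Window ranges lay apart at few places in the stretch. Brain cleared liver at 1 of 26 positions from the Hbb-b1 promoter, against 10.9% over the locus, and at 4 of 26 from HS-2, against 10.4%. From the promoter the widest gap was at 111.038 Mb, with 0.0602 (0 to 0.378) in liver and 0.954 (0.475 to 2.26) in brain. From HS-2 at that position liver had 0.213 and brain 1.41. From 3' HS-1 liver had 0.482 and brain 0.943 there, the position of the stretch where brain stood highest over liver from that viewpoint.

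The stretch was not uniform. At 111.034 Mb the 2 kb window rose to 6.54 from 3' HS-1 in liver, between 1.23 at 111.033 Mb and an empty position, and was 2.26 from HS-2 and 1.21 from the Hbb-b1 promoter. All 3 brain libraries were empty there, and the HS-62 library had 1.44. At 111.033 Mb, 1 kb below, brain had 8.69 from HS-2, 2.96 from the Hbb-b1 promoter and 1.69 from 3' HS-1, and the HS-62 library had 7.36. The liver and brain maxima thus stood at neighbouring positions, of which brain filled only the lower. In the 5 kb window the same place reached only 1.07 from 3' HS-1 and 1.08 from HS-2, both at 111.033 Mb.

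**Figure D4:**
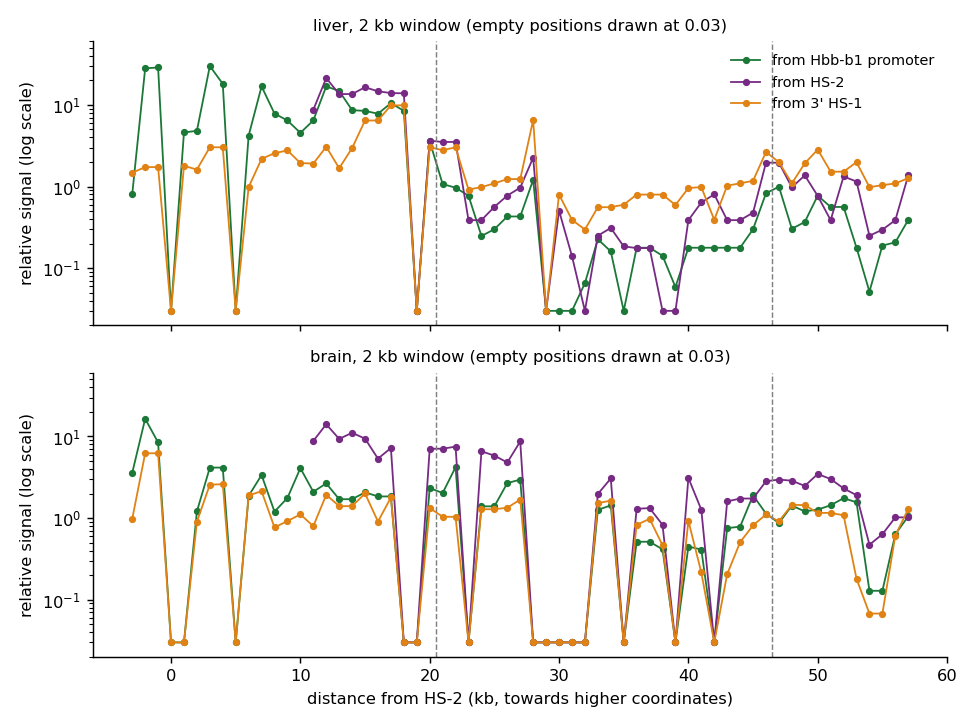
Relative signal in the 2 kb window (log axis) against the distance from HS-2 in kb, from 3 viewpoints in liver (upper panel) and brain (lower panel), with empty positions drawn at 0.03. The brain lines drop out together at 14 positions, while all 3 liver lines share 4 of these gaps and all 3 run on through 6, among them 111.024 Mb with 8.46 to 13.9.

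The same counts were made in the 2 kb window, with its shared gaps. From the Hbb-b1 promoter liver was at least 2-fold higher at 20 of 61 positions, against 10.3%, and 17 of the 20 lay in the control region. Brain was at least 2-fold higher at 21 of 61, against 42.9%. From HS-2 the counts were 8 of 47 for liver, against 10.3%, and 18 of 47 for brain, against 45%. From 3' HS-1 they were 28 of 61 for liver, against 29.3%, and 4 of 61 for brain, against 13.7%. Window ranges lay apart with liver higher at 6 positions from the promoter (5.56% over the locus), 5 from HS-2 (5.56%) and 12 from 3' HS-1 (19.8%). They lay apart with brain higher at 3 (10.1%), 7 (11.1%) and 1 (2.11%). Positions empty in brain count toward those with liver higher, and would not be counted if they were missing values.

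HS-62 lies 52 kb from HS-2, 81 kb from the Hbb-b1 promoter and 115.5 kb from 3' HS-1. Its block averaged 0.348 in liver and 0.810 in brain for the promoter, 0.812 and 1.47 from HS-2, and 1.30 and 0.591 from 3' HS-1. At the HS-62 position the liver values were 0.276, 0.366 and 1.31 and the brain values 1.08, 1.65 and 0.671. Only from the other outer site, 3' HS-1, was HS-62 thus higher in liver, and all 11 positions were.

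On the log2 scale the block differed by -1.02 from the Hbb-b1 promoter, -0.78 from HS-2 and 1.02 from 3' HS-1. Brain was at least 2-fold higher at 6 and 4 of 11 positions from the first pair of viewpoints, shares below the 66.7% and 66.9% over the locus. From 3' HS-1 liver was at least 2-fold higher at 6 of 11, against 24.2%, and over all 61 positions brain was at none, against 12.2%; brain cleared the liver range nowhere, as over the locus (0%). Division by the library median turned the first 2 differences to 0.85 and 0.09, and the decay on the side of the region turned them to 0.08 and 0.37 and left 0.11 from 3' HS-1. The window ranges of the tissues overlapped at all 11 positions from all 3 viewpoints.

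Within each library, the HS-62 block was compared with the nearer stretch, again free of scaling. Seen from the promoter, then HS-2, then 3' HS-1, the ratio was 1.28, 1.48 and 1.40 in liver and 0.987, 0.664 and 0.995 in brain. In this window the block was above the stretch in all 3 liver libraries, although it lies further away, and below it in the brain libraries. A maximum stood at 111.054 Mb, 4 kb below HS-62, in liver from HS-2, 1.68 (0.0714 to 5.45), and from 3' HS-1, 1.87 (0.850 to 6.31), and in brain from HS-2, 2.14 (1.16 to 3.95). From the Hbb-b1 promoter the block's highest values were 0.585 at 111.054 Mb in liver and 1.29 at 111.056 Mb in brain. That split did not hold in other windows. In the 2 kb window brain had 1.12 from the promoter and 1.32 from 3' HS-1, the latter above the liver ratio of 1.26. In the 10 kb window brain had 1.01 from 3' HS-1 and liver 0.993 from the promoter.

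Looking back from HS-62 in liver, the control region stood as high as the nearer stretch. Its 24 positions averaged 3.28, at 32 to 55 kb, and the 21 stretch positions more than 10 kb away averaged 3.09. The highest value, 6.88 (2.49 to 10.1), was at 111.024 Mb, 34 kb from HS-62 and 18 kb beyond HS-2. The HS-2 position had the lowest value of the control region, 2.09 (0.768 to 5.85), with 2.10 at both 111.004 and 111.005 Mb. In the 2 kb window this library was empty at the HS-2 position. At 111.009 and 111.010 Mb, where the HS-2 liver library peaked in that window, it had 3.37, against a 2 kb mean of 3.30 for the control region. In the 5 kb window these positions had 2.34 and 2.81. The low thus belongs to the assigned HS-2 position only. The lowest filled 2 kb value of the HS-62 library in the control region was 1.39, at 111.014 Mb. The stretch ran from 2.24 at 111.035 Mb to 4.05 at 111.047 Mb, with maxima of 3.80 at 111.040 Mb and 3.56 at 111.031 Mb. No brain library of HS-62 was analysed here, so this profile has no tissue comparison.

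The outer sites thus had their highest values at the same end of the control region in liver. From 3' HS-1 the values at 111.022, 111.023 and 111.024 Mb were 6.92, 6.96 and 6.92, and from HS-62 they were 4.22, 5.16 and 6.88. From the Hbb-b1 promoter the same positions had 9.66, 7.76 and 5.72, below its 23.3 at the HS-2 position, 111.006 Mb. From HS-2 they had 15.5, 13.2 and 7.53, of which 15.5 was that library's highest value in the region beyond 10 kb. A high at this end was thus not particular to the outer sites. In brain the 3 viewpoints had 1.56, 1.56 and 1.39 from the promoter, 5.42, 4.09 and 5.04 from HS-2, and 1.24, 1.11 and 0.826 from 3' HS-1. In the 2 kb window the HS-62 library had 7.40 at 111.024 Mb and 8.56 at 111.026 Mb from its NlaIII and DpnII fragments.

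**Figure D5:**
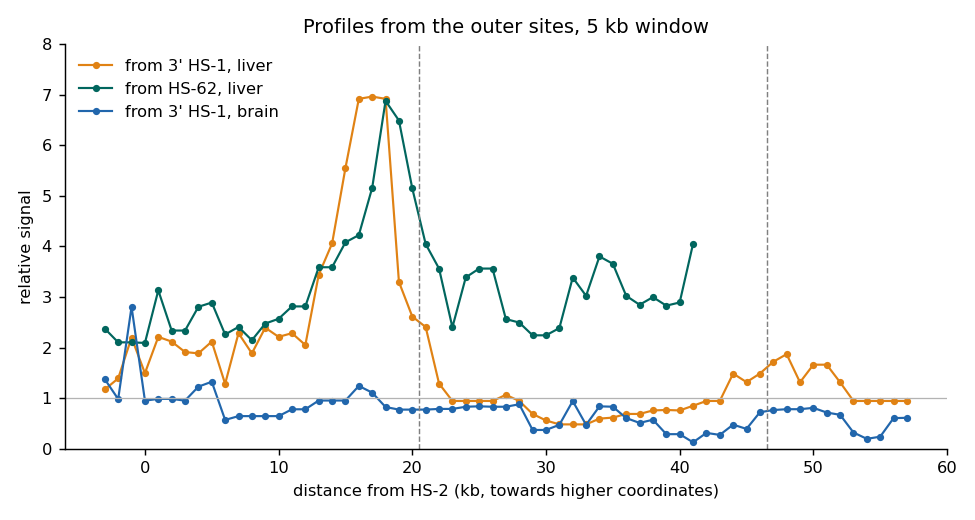
Relative signal (5 kb window, linear axis) against the distance from HS-2 in kb, from 3' HS-1 in liver (orange) and brain (blue) and from HS-62 in liver (green, without positions within 10 kb of it), 1 library each. Both liver lines peak near the upper end of the control region, at 6.96 and 6.88, 1 kb apart, where the brain line is at 1.11 and 0.826. The second of these positions, 111.024 Mb, was empty in brain in the 2 kb window.

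The shape of the profiles was alike among the liver libraries of the 3 DpnII/Csp6I viewpoints. Across shared positions, Pearson's r of log2 relative signal was 0.94 between the Hbb-b1 promoter and HS-2 (47 positions), 0.90 between HS-2 and 3' HS-1 (47) and 0.77 between the promoter and 3' HS-1 (61). In brain the same pairs had 0.85, 0.71 and 0.82. Between tissues the value was 0.83 from the promoter, 0.85 from HS-2 and 0.49 from 3' HS-1. The HS-62 library had -0.02 with the promoter, 0.48 with HS-2 and 0.44 with 3' HS-1 in liver, over 45, 31 and 45 positions. Neighbouring positions share smoothing windows and all 3 DpnII/Csp6I viewpoints have the region on the same side, so these values describe shape and decay together.

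At the lower bound of the region, liver from the Hbb-b1 promoter had 14.8 at 111.003 Mb and 3.81 at 111.002 Mb just outside, and brain 4.04 and 3.22. At the upper bound, 111.063 and 111.064 Mb, liver had 0.276 at both and brain 0.598 and 0.857.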

How the data were processed

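The deposited files hold 4C signal in steps of 1000 bp, smoothed by the authors over running windows, with a middle, a higher and a lower value per window. Coordinates are mm9, per the submitters' processing notes. The file names call the signal a normalized median; the aligner, the filters, the read numbers and the quantiles of the outer values were not given in the sources used here. Depth is therefore unknown, and no counting interval was computed. Window sizes were read from unfilled positions at the ends of each column.

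The viewpoint was placed at the highest 5 kb signal (median over its libraries). Signal was divided by the library mean beyond 10 kb. Differences were log2 of liver over brain after adding 10% of the library mean. Positions under 1e-09 counted as empty. Positions named were the viewpoints, up to 4 maxima per library at least 5 kb apart, the lowest positions and the largest differences per block, and the bounds; the positions and values at 111.034 Mb, the shared peak at 111.022 to 111.024 Mb, the steepest falls and the ratios between blocks were chosen after their values were seen. The region and lists were chosen with earlier results of these data known. Alternatives were other windows (2 and 10 kb), scales, pseudocounts, excluded distances (20 kb) and monotone decays. The block difference, on the deposited scale, and the decay fit were tested on simulated profiles without empty positions. Division by the library mean, the 10% pseudocount and the window ranges were not covered by that test. Python 3.11.15, pandas 2.3.3, scikit-learn 1.9.0 and scipy 1.17.1 were used.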

Additional observations from a re-analysis of the deposited data

Results flagged for a closer look

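In 2 of the 3 blocks the difference between liver and brain ran opposite ways by viewpoint, with 1 library on each side, and whether the viewpoints differ was not tested. In the stretch between the control region and HS-62, log2 liver over brain was -1.31 from the Hbb-b1 promoter, -1.83 from HS-2 and 0.56 from 3' HS-1. In the HS-62 block it was -1.02, -0.78 and 1.02. Over the whole locus the median of the same difference was -1.60, -1.81 and 0.20, so each viewpoint's direction in these blocks is also that of its library pair as a whole. The opposite directions depended on the scale. Divided by the library median, the HS-62 block gave 0.85, 0.088 and 0.66, and the stretch 0.57, -0.96 and 0.20. With the decay on the side of the region the HS-62 block gave 0.081, 0.37 and 0.11, and the stretch -0.13, -0.21 and -0.11.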

How the results depend on the processing

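Of 80 recomputed block differences, 62 kept their direction and moved by less than the template pair's SD. These 62 include the values with 20 kb around the viewpoint left out. That setting removed no position of the blocks concerned, so those values could not change and are no check. No paired analysis was possible because each group was 1 library. Leaving out 20 kb around HS-2 left no position in the control region. In the following, the viewpoints stand in the order promoter of Hbb-b1, HS-2, 3' HS-1. Division by the library median gave 4.07 and 1.69 in the control region from the first 2, 0.57 and -0.96 in the stretch, and 0.85 and 0.088 in the HS-62 block. The decay over both sides gave 1.30 in the control region, 0.45 in the stretch and 0.53 in the HS-62 block from the promoter. The decay on the side of the region gave 0.48, 0.0041 and 0.48 in the control region, -0.13, -0.21 and -0.11 in the stretch, and 0.081, 0.37 and 0.11 in the HS-62 block. This decay absorbs a fall with distance by its construction; for the other settings the cause was not tested.

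For the log2 ratio of control region to stretch, liver minus brain, the decay over both sides gave 0.85 from the promoter, the decay on 1 side 0.61 and 0.22 from the promoter and HS-2, and the 2 kb window -0.047 from 3' HS-1. Without the positions empty in all brain libraries the latter was 0.26. For the HS-62 block over the stretch the 2 kb window gave -0.063 from 3' HS-1.

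Counts of positions moved more. With liver at least 2-fold above brain, 22 from the promoter became 2 with the decay on 1 side. From HS-2, 4 became 8 in the 2 kb window, 1 on the deposited scale, 8 with the median, 0 with 20 kb left out, 1 with the decay over both sides and 0 on 1 side. From 3' HS-1, 31 became 20 with the median, 17 with the decay over both sides and 5 on 1 side. With brain at least 2-fold above liver, 26 from the promoter became 15 in the 10 kb window, 15 on the deposited scale, 0 with the median, 0 with the decay over both sides and 3 on 1 side. From HS-2, 28 became 18 in the 2 kb window, 17 with the median and 5 with the decay on 1 side. From 3' HS-1, 0 became 4 in the 2 kb window, 1 with the median, 1 with the decay over both sides and 4 on 1 side.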
